A study of Mus musculus with 20 samples.

Results

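Collagens are the triple-helical proteins of the extracellular matrix, and their genes were followed here in colonic organoids (colonoids) from WT and Tnfr2-/- mice. The family was taken as every gene symbol made of Col, a number, a and a second number, which gave 44 of the 35240 symbols in the table. The 44 genes comprised 11 fibrillar, 9 basement membrane and 24 other collagens. Of these, 26 had a mean level of at least 1 over the 20 libraries and were tested (10 fibrillar, 7 basement membrane and 9 other), and 18 were set aside.

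The study asked how loss of TNFR2, a receptor for tumour necrosis factor, changes colonoids as they regrow after passage. Crypts from colons of C57BL/6 (WT) or whole-body Tnfr2-/- mice were grown in Matrigel and passaged 5 times. They were then put through a mesh, seeded without reduction to single cells, and collected on 5 days after passage, namely at 1, 2, 3, 5 and 7 DPP (DPP, days post-passage). Each of the 10 combinations of genotype and day had 2 libraries, 1 from each of 2 mice, so that p-values over libraries treat repeated sampling of an animal as replication. No treatment was given to either genotype. Mice for colonoid cultures were 8 weeks old by the culture methods, and the sample labels give no age. The knockout removes the receptor from every cell and not from epithelium alone. Single-cell profiling of colonoid cultures at 7 DPP in the same study held fibroblasts beside epithelium, so the bulk libraries can hold both.

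Fibrillar collagens such as types I, III and V form the cross-banded fibrils of connective tissue and are made mostly by fibroblasts. Type IV collagen forms the sheet-like network of the basement membrane under epithelium, with types VII, XV and XVIII linking that sheet to the tissue below. The remaining types decorate fibrils, form beaded filaments or span membranes. Chains are modified in the endoplasmic reticulum, trimmed outside the cell and then cross-linked.

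Levels are the deposited values: TPM, a transcript abundance per length, divided by a size factor for each library, summed over the transcripts of a symbol. Library sums ran from 899764 to 1110233, and the table holds no read counts, so the reads behind each value are not known. The sequencing methods give only an approximate read total per library. Tnfrsf1b, the gene for TNFR2, had levels of 11.1 to 21.9 in the 10 WT libraries and 2.71 to 11.45 in the 10 Tnfr2-/- libraries. The ranges overlapped by 1 library, Tnfr2-/- mouse 2 at 7 DPP, whose 11.45 was above the lowest WT value of 11.14, and the log2 difference was -1.35 ± 0.17 (SE, adjusted p = 9.72e-05). Of 8 epithelial markers all were detected, with summed levels of 7035 to 10631. The 12 mesenchymal markers were all detected too, with Vim and Dcn the highest. Summed endothelial, immune cell, muscle or pericyte and glial markers stayed at or below 8.61 in every library, and the mesothelial marker Upk3b was near 0 while Msln was between 299 and 1012.

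The collagens together held between 0.210% and 0.919% of a library's summed level. Fibrillar collagens made up 50.7% of the collagen sum, basement membrane collagens 31.9% and the others 17.4%. Col3a1, the single chain of type III collagen, led with a mean level of 1444 and ranked 108th of all 35240 symbols. Next came Col4a1 at 839 and Col1a2 at 454, followed by Col18a1 and Col1a1, both at 353. Col4a2 averaged 309 and Col6a3 came next, and Col12a1, Col6a1, Col6a2, Col5a2 and Col5a1 lay between 104 and 193. Col7a1 averaged 95.3, Col16a1 85.3, Col5a3 40.9, Col8a1 20.9 and Col27a1 11.9. Col15a1 averaged 6.24 and Col11a1 5.30, while Col24a1, Col26a1, Col25a1, Col4a5, Col20a1, Col11a2 and Col4a3 lay between 1.05 and 3.17.

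The genes set aside included the cartilage chains Col2a1, Col9a1, Col9a2, Col9a3 and Col10a1, of which Col9a1 was at 0 in all 20 libraries and Col2a1 was at 0 in 17. Col17a1, a membrane-spanning collagen of hemidesmosomes, averaged 0.336, and Col14a1, a fibril-associated collagen, averaged 0.403. Col4a4 and Col4a6, chains of specialised type IV networks, averaged 0.0982 and 0.0335. The others set aside were Col6a4, Col6a5, Col6a6, Col8a2, Col13a1, Col19a1, Col22a1, Col23a1 and Col28a1, and none of the 18 was tested.

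Summed levels were compared by day first. Fibrillar collagens summed to 1685 to 3145 in the 6 WT libraries of 1 to 3 DPP (early) and 934 to 3192 in the 4 WT libraries of 5 and 7 DPP (late). In Tnfr2-/- cultures the fibrillar sum was 1480 to 2959 early and 1831 to 5103 late. The means were 2595 ± 528 (SD, n = 6) and 2000.1 ± 1101 (n = 4) in WT and 2247 ± 569 (n = 6) and 3490.3 ± 1433 (n = 4) in Tnfr2-/-. The ranges of the genotypes overlapped at both phases, and the late WT range spanned a difference between the mice. WT mouse 1 went from an early mean of 2324 to a late mean of 1070, whereas WT mouse 2 held 2866 and 2930. Both Tnfr2-/- mice increased, from 1861 to 2989 in mouse 1 and from 2633 to 3991 in mouse 2. Their sums were 1831 and 2879 at 5 DPP and 4148 and 5103 at 7 DPP, so the increase lay mostly at 7 DPP.

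Basement membrane collagens summed to 1169 to 1778 early and 815 to 2196 late in WT, and to 1133 to 1719 early and 1620 to 2971 late in Tnfr2-/-. Late over early was 0.962 in WT mouse 1, 1.25 in WT mouse 2, 1.60 in Tnfr2-/- mouse 1 and 1.80 in Tnfr2-/- mouse 2. For the other collagens the same ratios were 0.647, 1.19, 1.53 and 1.502. WT mouse 1 was thus the lowest of the 4 mice in every class. No test was made on the class sums.

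**Figure D1:**
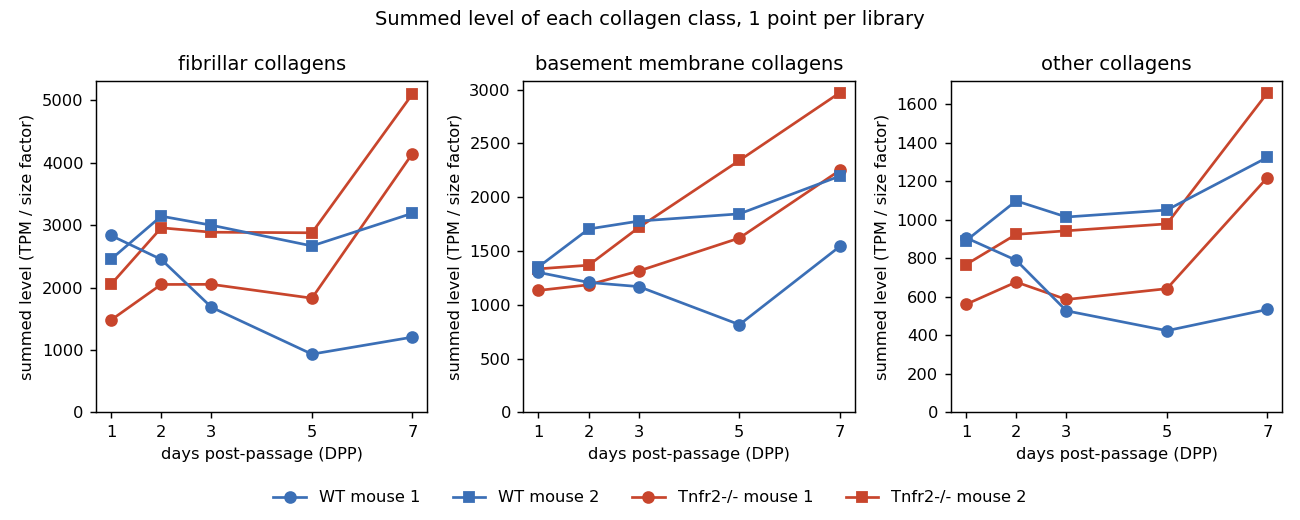
Summed level (TPM divided by size factor, vertical axis from 0) of fibrillar, basement membrane and other collagens against days post-passage, with 1 point per library and a line per mouse. At 7 DPP both Tnfr2-/- mice were above both WT mice in the fibrillar and basement membrane sums, and WT mouse 1 was the lowest at 5 DPP in all 3 classes.

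Gene by gene, 23 of the 26 tested collagens had a higher mean late than early in Tnfr2-/- mouse 1 and 24 in Tnfr2-/- mouse 2. In WT mouse 2 the number was 16, and in WT mouse 1 it was 3. The median of late over early across the 26 genes was 1.95 and 2.13 in the Tnfr2-/- mice, 1.17 in WT mouse 2 and 0.654 in WT mouse 1. The ratios describe 2 animals of each genotype and were not tested.

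**Figure D2:**
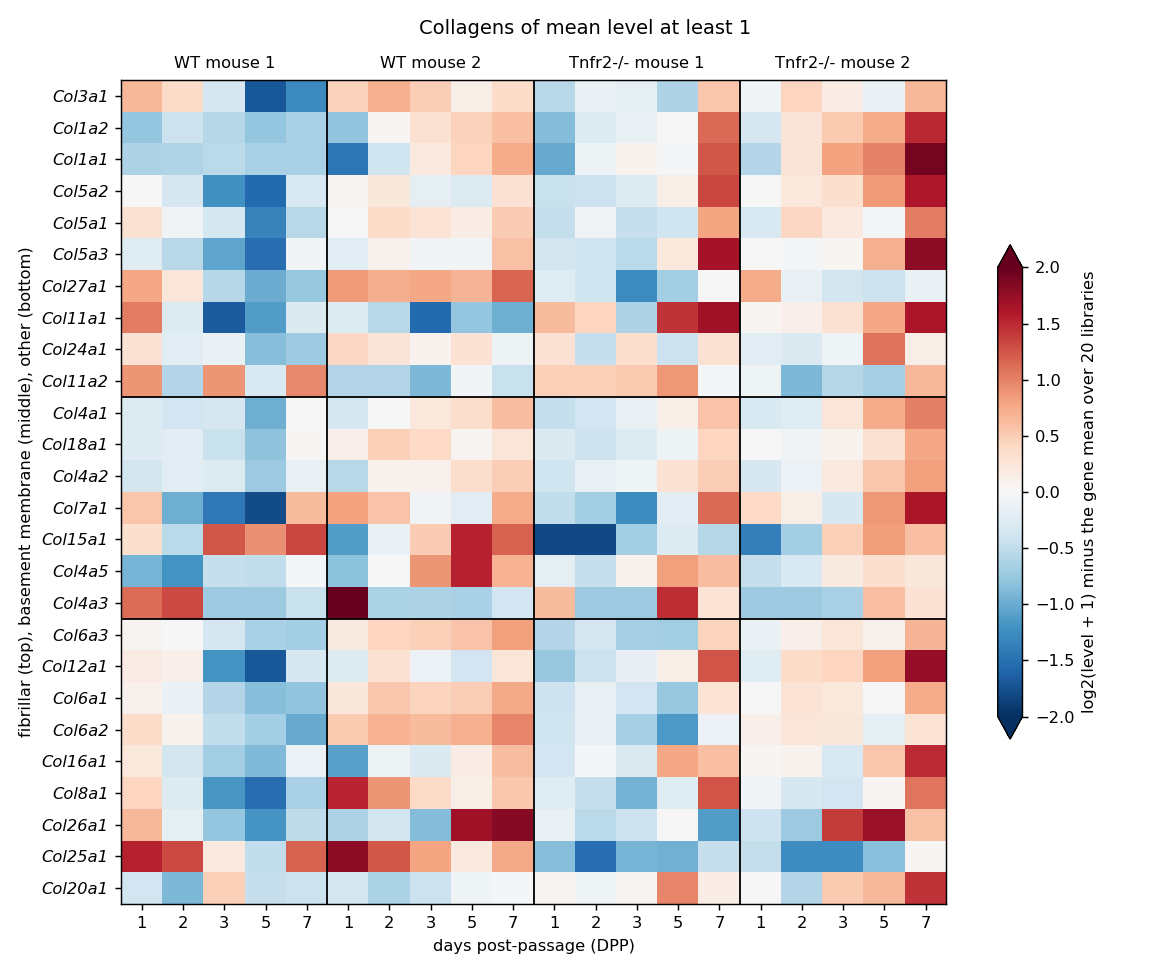
Levels of the 26 tested collagens as log2(level + 1) minus the mean of each gene over the 20 libraries (colour, cut at 2 in either direction), with libraries ordered by mouse and days post-passage on the horizontal axis. The 7 DPP columns of both Tnfr2-/- mice are red for most fibrillar genes, and the 5 DPP column of WT mouse 1 is blue for most genes.

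The genotypes were then compared over the late days, with limma on log2(level + 1) across 13539 genes and a call at an adjusted p below 0.05. Col11a1, Col12a1, Col5a2 and Col5a3 were higher in Tnfr2-/- cultures, and Col25a1 was lower. This is 4 of 26 higher, against 3.80% of all genes tested, and 1 of 26 lower, against 2.64%. Col25a1 reached the mean of 1 needed for testing through WT alone, so the lower count is a description. By class the higher calls were 3 of 10 fibrillar, 0 of 7 basement membrane and 1 of 9 other collagens. The median log2 difference of the 26 was 0.64, with 21 above 0, and that of all genes was -0.05. With the late libraries of WT mouse 1 left out, an alternative chosen after seeing the data, the median was 0.19 with 17 above 0, and 1 collagen (Col11a1) was called.

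Col11a1 encodes a minor fibrillar chain that co-assembles with type II and type V chains and limits fibril width. Its levels at 5 and 7 DPP were 1.32 and 3.13 in WT mouse 1 and 1.93 and 1.55 in WT mouse 2. In Tnfr2-/- mouse 1 they were 12.7 and 15.2, and in mouse 2 they were 7.63 and 14.5. The 4 Tnfr2-/- libraries were all above the 4 WT libraries, with a log2 difference of 2.18 ± 0.32 (SE, adjusted p = 0.00163). Without overlap at the late days were 4 of the 26 collagens, Col11a1, Col4a3, Col20a1 and, with WT higher, Col15a1, against 11.4% of all genes. Of these Col4a3 and Col20a1 reached the mean of 1 needed for testing in 1 genotype only (1.22 in WT against 0.875, and 0.727 against 1.81 in Tnfr2-/-), so their separation is a description. At 1 to 3 DPP Col11a1 ranged from 0.592 to 9.21 in WT and from 2.26 to 6.78 in Tnfr2-/-, and that difference was not called (0.70 ± 0.26, adjusted p = 0.25). Over all days Col11a1 was higher by 1.29 ± 0.27 (adjusted p = 0.00824), the only 1 of 26 called higher there, against 4.51% of all genes.

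Col11a1 lies on the plus strand of chromosome 3 (chr3:114030540-114220718, GRCm38), and a protein-coding transcript, Col11a1-201, held 58.6% of its summed level. Col11a1-204, typed as subject to nonsense-mediated decay, held 21.8%. Summed over protein-coding transcripts only, an alternative chosen after the data were seen, the late difference was 2.20 (adjusted p = 0.00034).

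Col5a3 and Col5a2 encode chains of type V collagen, which nucleates type I fibrils, and they gave the next fibrillar calls. Col5a3 (chr9:20770050-20815067, minus strand) was at 11.4 and 33.8 in WT mouse 1 at 5 and 7 DPP and at 33.6 and 52.7 in WT mouse 2. In Tnfr2-/- cultures it was at 40.7 and 113 in mouse 1 and at 57.7 and 123 in mouse 2. The late difference was 1.36 ± 0.31 (SE, adjusted p = 0.0222). At 7 DPP both Tnfr2-/- libraries were above both WT libraries, while the level of Tnfr2-/- mouse 1 at 5 DPP was inside the WT range. Its early levels were 16.3 to 37.0 in WT and 23.6 to 36.1 in Tnfr2-/-.

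Col5a2 (chr1:45374321-45503282, minus strand) was at 39.2 and 94.7 in WT mouse 1 and at 97.5 and 143 in WT mouse 2 at 5 and 7 DPP. It was at 127 and 298 in Tnfr2-/- mouse 1 and at 213 and 362 in mouse 2, a difference of 1.44 ± 0.31 (SE, adjusted p = 0.0169). Only the 5 DPP library of Tnfr2-/- mouse 1 fell within the WT range. Its early levels were 50.2 to 138 in WT and 86.5 to 147 in Tnfr2-/-. The third chain of the type, Col5a1, differed by 0.66 ± 0.31 and was not called (adjusted p = 0.22).

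Col12a1 encodes type XII collagen, which binds the surface of type I fibrils. Its levels at 5 and 7 DPP were 50.9 and 134 in WT mouse 1, 128 and 197 in WT mouse 2, 181 and 403 in Tnfr2-/- mouse 1 and 297 and 565 in Tnfr2-/- mouse 2. The difference was 1.53 ± 0.32 (SE, adjusted p = 0.0157), with the 5 DPP library of Tnfr2-/- mouse 1 below the highest WT library. Its early levels were 72.8 to 208 in WT and 98.3 to 226 in Tnfr2-/-. The type XII gene lies at chr9:79598991-79718831 on the minus strand.

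**Figure D3:**
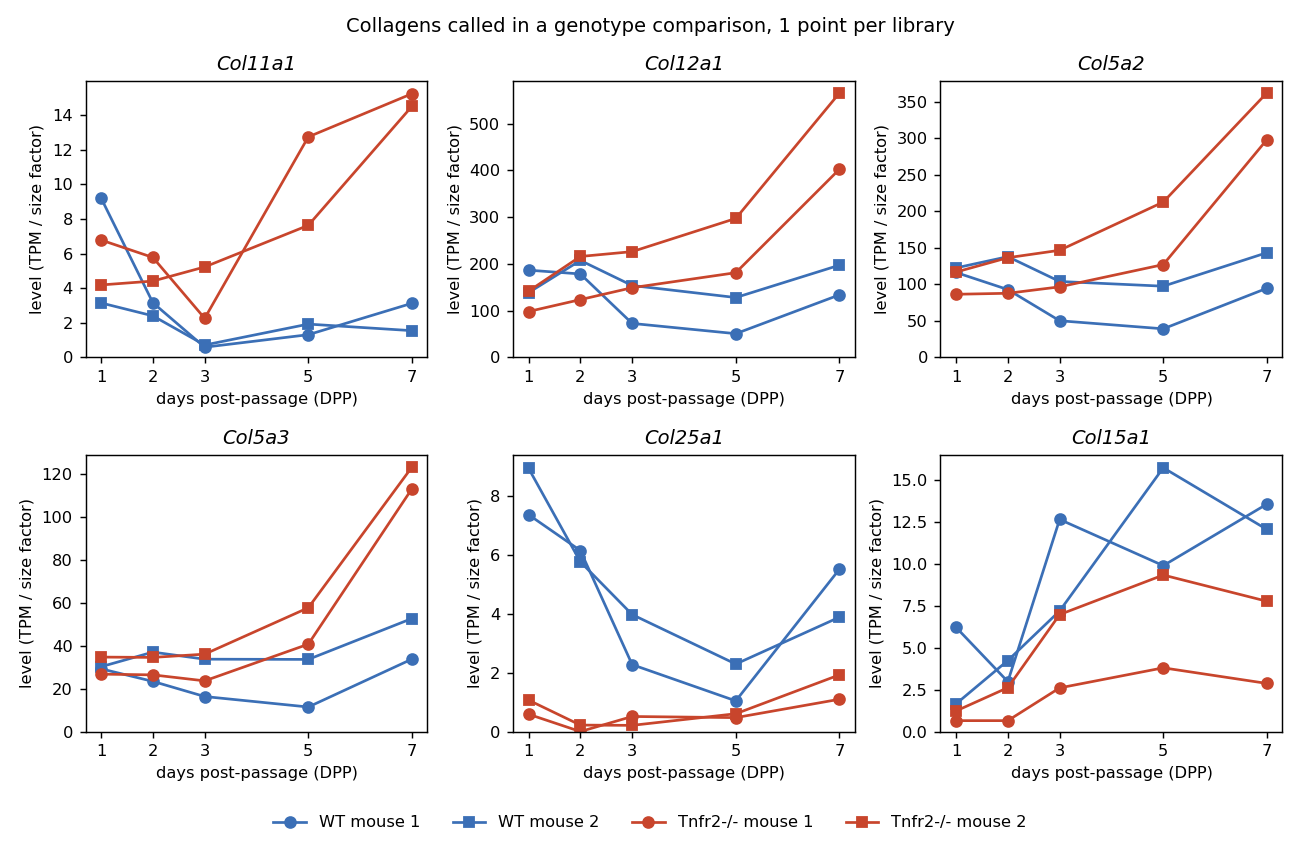
Levels (TPM divided by size factor, each vertical axis from 0) of the 6 collagens called in a genotype comparison against days post-passage, with 1 point per library and a line per mouse. Col11a1, Col12a1, Col5a2 and Col5a3 separate by genotype at 7 DPP, and Col25a1 separates at 1 to 3 DPP.

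The late calls of Col12a1, Col5a2 and Col5a3 did not hold in every fit that left out 1 library. Each was lost without WT mouse 1 at 5 DPP and without Tnfr2-/- mouse 2 at 5 or at 7 DPP. The Col5a2 and Col5a3 calls were lost without WT mouse 1 at 7 DPP as well, and that of Col5a3 without Tnfr2-/- mouse 1 at 7 DPP. The adjusted p values in these fits were 0.0666 to 0.0736 for Col12a1, 0.0541 to 0.0794 for Col5a2 and 0.0616 to 0.0915 for Col5a3, with log2 differences of 1.20 to 1.41, 1.12 to 1.37 and 0.99 to 1.39. Col11a1 was called in each of the 20 fits that left out 1 library, at an adjusted p of at most 0.0113. With the late libraries of WT mouse 1 left out together, the differences of Col12a1, Col5a2 and Col5a3 were 1.06, 0.97 and 0.83 (adjusted p = 0.137, 0.148 and 0.172), and that of Col11a1 was 2.27 (adjusted p = 0.011). Without WT mouse 2 at 5 DPP, 11 collagens were called in place of 5, all higher, against 5.88% of all genes in that fit.

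On the means of each mouse, 2 mice against 2, limma called 0 collagens in each genotype comparison, with 5, 7 and 4 of the 26 at an unadjusted p below 0.05 over all, late and early days, against 11.2%, 13.7% and 8.22% of all genes. There the adjusted p values of Col11a1, Col12a1, Col5a2 and Col5a3 at the late days were 0.187, 0.28, 0.287 and 0.309. That fit called 0 of 13539 genes at the late days, 1859 of them at an unadjusted p below 0.05. Taking the mouse as a correlated block kept the 4 higher calls.

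Fewer cells of a type and less RNA per cell cannot be told apart in these bulk libraries. Markers of mesenchymal cells were fitted higher in late Tnfr2-/- cultures, as were 21 of the 26 collagens, with 4 called higher in each set. The 12 mesenchymal markers summed to 858 to 2363 in WT early, 636 to 2078 in WT late, 1593 to 3134 in Tnfr2-/- early and 2573 to 5813 in Tnfr2-/- late. All 12 were fitted higher in Tnfr2-/- at the late days and 4 were called, against 3.80% of all genes: Dcn (2.74 ± 0.22), Twist1 (1.75 ± 0.31), Vim (1.69 ± 0.34) and Prrx1 (1.47 ± 0.29). The defining fibroblast receptors Pdgfra and Pdgfrb were not called, and none of the 12 was at 0 in any library. WT mouse 1 went from an early mean of 1458 to a late mean of 932 in this sum, and with its late libraries left out 6 of the 12 were fitted higher and 2 were called. In WT mouse 2 the marker sum went from 2019 to 1843, by a factor of 0.913, while the fibrillar, basement membrane and other collagen sums changed by factors of 1.02, 1.25 and 1.19. At the early days 9 of 12 markers were fitted higher in Tnfr2-/-, with a median of 0.30, against 12 of 26 collagens, with a median of -0.10. The part of these markers in the collagen differences was not tested. The 8 epithelial markers included no late genotype call.

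The membrane-spanning Col25a1, known from neurons and muscle innervation, was the collagen that differed at the early days. Its levels at 1, 2 and 3 DPP were 7.38, 6.16 and 2.28 in WT mouse 1 and 8.96, 5.78 and 3.98 in WT mouse 2. In Tnfr2-/- mouse 1 they were 0.589, 0 and 0.512, and in mouse 2 they were 1.07, 0.219 and 0.21. All 6 WT libraries were above all 6 Tnfr2-/- libraries, the 1 such case of 26, against 1.28% of all genes. Col25a1 reached the mean of 1 needed for testing through WT alone, with means over all days of 4.73 in WT and 0.671 in Tnfr2-/-. It thus entered the test through the genotype where it was high, and its counts are a description. Col4a3 passed in the same way, and Col11a2 and Col20a1 through Tnfr2-/- alone.

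The early log2 difference of Col25a1 was -2.19 ± 0.21 (SE, adjusted p = 0.000135). It was the 1 of 26 called lower there, a description for the reason above, against 0.428% of all genes. None was called higher, against 0.768%. At 5 and 7 DPP its levels were 1.04 and 5.52 in WT mouse 1, 2.30 and 3.89 in WT mouse 2, 0.473 and 1.098 in Tnfr2-/- mouse 1 and 0.606 and 1.93 in Tnfr2-/- mouse 2. The late difference was -0.97 ± 0.26 (adjusted p = 0.0408), a call lost with the mouse as a block (adjusted p = 0.054) and in 12 of the 20 fits without 1 library (adjusted p = 0.0501 to 0.14). Over all days the difference was -1.70 ± 0.22 (adjusted p = 0.000169), and it held in all 20 such fits with a highest adjusted p of 0.000564.

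Levels of Col25a1 were low in both genotypes, 59.1% of them were on the protein-coding Col25a1-202, and a filter at a mean of 5 removes the gene. On mouse means its early difference had an adjusted p of 0.173.

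Col15a1, a collagen of the basement membrane zone around vessels and muscle, was the other gene lower over all days in Tnfr2-/-. This gives 2 of 26 called lower, against 3.09% of all genes, and the part of Col25a1 in that count is a description. Levels of Col15a1 at 1, 2, 3, 5 and 7 DPP were 6.22, 2.98, 12.7, 9.90 and 13.6 in WT mouse 1. In WT mouse 2 they were 1.65, 4.24, 7.20, 15.7 and 12.1. In Tnfr2-/- mouse 1 they were 0.65, 0.651, 2.60, 3.80 and 2.87, and in mouse 2 they were 1.23, 2.62, 6.98, 9.34 and 7.77. The difference over all days was -1.05 ± 0.24 (SE, adjusted p = 0.0127), while the late and early differences of -1.09 ± 0.42 and -1.02 ± 0.35 were not called (adjusted p = 0.145 and 0.209). The transcript Col15a1-209, typed as a processed transcript, held 33.7% of the sum and protein-coding transcripts held 49.9%, and on the latter alone the difference was -0.54 (adjusted p = 0.261). On mouse means the adjusted p was 0.423. With the late libraries of WT mouse 1 left out, the Col15a1 difference over all days was -1.08. In that fit Col27a1 differed by -0.89 and Col11a1 by 1.18.

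The time course was compared within each genotype. In Tnfr2-/- cultures 9 of 26 collagens rose from early to late, against 10.4% of all genes, and none fell, against 9.93%. The 9 were 5 of 10 fibrillar collagens, 2 of 7 basement membrane collagens and 2 of 9 others. The median log2 change of the 26 was 0.75, and that of all genes was 0.02. In WT cultures 1 of 26 rose (Col15a1), against 11.6%, and 1 fell (Col25a1), against 8.52%, with a median change of -0.12 and 11 of 26 above 0. The WT median was 0.41, with 20 of 26 above 0, once the late libraries of WT mouse 1 were left out. The Col15a1 and Col25a1 calls were lost in that fit (adjusted p = 0.150 and 0.169), while Col4a2 and Col4a5 were called higher.

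The difference between the genotypes in this change was itself tested and was called for 0 of 26 collagens by limma, against 0.148% of all genes. Unadjusted, 10 of the 26 had a p below 0.05, against 11.7% of all genes, and the smallest adjusted p was 0.176. The fits with the mouse as a block and on mouse means also called 0. The fitted difference was positive for 23 of 26, with a median of 0.68, and for 6344 of all 13539 genes, with a median of -0.03. With the late libraries of WT mouse 1 left out it was positive for 18 of 26, with a median of 0.28.

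**Figure D4:**
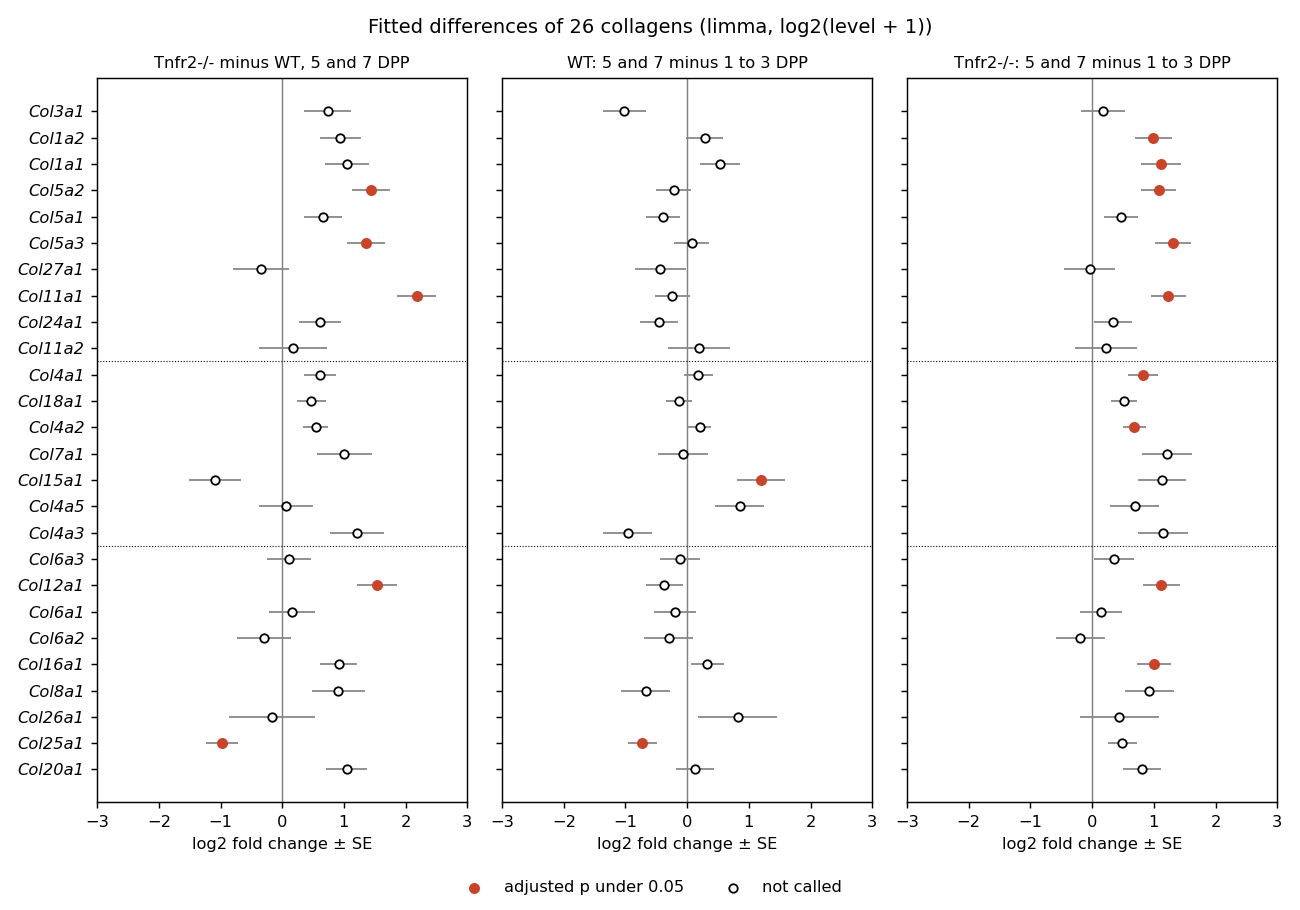
Log2 fold changes with standard errors (horizontal axis) of the 26 tested collagens for Tnfr2-/- minus WT at the late days and for late minus early in each genotype, with filled points for an adjusted p below 0.05. All 9 filled points of the Tnfr2-/- time course lie to the right of 0, and the WT time course has a filled point on either side.

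Type I collagen, the main protein of connective tissue fibrils, is built from chains of Col1a1 and Col1a2. Col1a1 (chr11:94936224-94953042, plus strand) was at 147, 277, 311, 289.8 and 701 in Tnfr2-/- mouse 1 at 1, 2, 3, 5 and 7 DPP and at 198, 357, 521, 592 and 1120 in mouse 2. In both mice the 7 DPP level was the highest and the 1 DPP level the lowest, and the late change was 1.12 ± 0.33 (SE, adjusted p = 0.0272). In WT mouse 1 it stayed between 189.8 and 204, and in WT mouse 2 it went from 109 at 1 DPP to 495 at 7 DPP. The WT change was 0.54 ± 0.33 (adjusted p = 0.271), and with the late libraries of WT mouse 1 left out it was 1.15 (adjusted p = 0.0601).

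Col1a2 (chr6:4504814-4541544, plus strand) was at 223, 336, 364, 406 and 891 in Tnfr2-/- mouse 1 and at 319.96, 484, 584, 682 and 1159 in mouse 2. The change was 0.99 ± 0.30 (adjusted p = 0.0338). In WT mouse 1 it was between 237 and 302, and in WT mouse 2 it went from 233 to 615. The WT change was 0.28 ± 0.30, and 0.90 with the late libraries of WT mouse 1 left out (adjusted p = 0.549 and 0.0812). At 7 DPP both type I genes were higher in each Tnfr2-/- mouse than in each WT mouse, but their late genotype differences of 1.06 ± 0.36 and 0.94 ± 0.33 were not called (adjusted p = 0.101 and 0.113), and they were 0.44 and 0.32 with the late libraries of WT mouse 1 left out.

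Type III collagen was the most abundant fibrillar type and was called in none of the 6 comparisons. Col3a1 (chr1:45311538-45349706, plus strand) was at 2104, 1726, 1052, 409.96 and 549 in WT mouse 1 at 1, 2, 3, 5 and 7 DPP and at 1833, 2182, 1881, 1446 and 1716 in WT mouse 2. In Tnfr2-/- mouse 1 it was at 906, 1213, 1175, 869.8 and 1946, and in mouse 2 at 1277, 1800.1, 1472, 1216 and 2109. The lowest values were the late ones of WT mouse 1, and the Tnfr2-/- change was 0.17 ± 0.35 (adjusted p = 0.77). The WT change was -1.02 ± 0.35 (adjusted p = 0.056), which passed the threshold with the mouse as a block (adjusted p = 0.00945) and with protein-coding transcripts only (-1.16, adjusted p = 0.0331) but not on mouse means (adjusted p = 0.0809), and which was -0.15 with the late libraries of WT mouse 1 left out. Of its summed level 30.6% was on Col3a1-207, typed as a retained intron. The late genotype difference of 0.74 ± 0.38 was not called (adjusted p = 0.275), and it became -0.13 with the late libraries of WT mouse 1 left out (adjusted p = 0.864).

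The ratio of Col3a1 to Col1a1 was read as a summary of both genes. It was 5.16 to 16.8 in WT early and 2.16 to 3.61 in WT late, and 2.83 to 6.45 in Tnfr2-/- early and 1.88 to 3.00 in Tnfr2-/- late. Early and late did not overlap in WT and did in Tnfr2-/-. The ratios are of values per length and were not tested.

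The minor fibrillar chains that were higher in Tnfr2-/- at the late days also rose with time in that genotype. Col5a3 rose by 1.31 ± 0.28 (SE, adjusted p = 0.00613), Col11a1 by 1.24 ± 0.29 (adjusted p = 0.0089) and Col5a2 by 1.08 ± 0.28 (adjusted p = 0.0164). Both comparisons share the late Tnfr2-/- libraries. Col5a1 changed by 0.47 ± 0.28 (adjusted p = 0.27), Col24a1 by 0.34 ± 0.31 and Col27a1 by -0.04 ± 0.41, and Col11a2, near a level of 1, by 0.23 ± 0.50.

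Chains of the same type were compared by their ratios. Col1a1 to Col1a2 lay between 0.467 and 0.966 in all 20 libraries, with medians of 0.665, 0.767, 0.780 and 0.828 in WT early, WT late, Tnfr2-/- early and Tnfr2-/- late. Col4a1 to Col4a2 lay between 2.24 and 3.12. Col5a1 to Col5a2 was 0.703 to 1.11 in the late WT libraries and 0.454 to 0.584 in the late Tnfr2-/- libraries, which did not overlap. Col6a1 to Col6a2 was 1.18 to 1.62 in late WT and 1.58 to 1.92 in late Tnfr2-/-, and those ranges overlapped. The ratios are descriptions and were not tested.

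**Figure D5:**
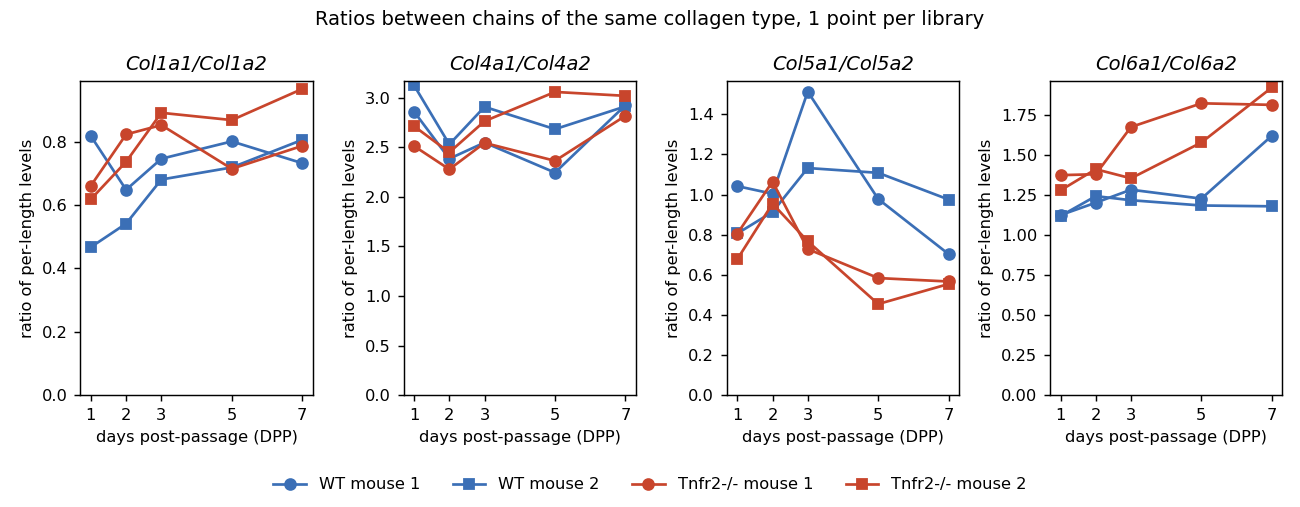
Ratio of the per-length levels of paired chains of collagen types I, IV, V and VI (vertical axes from 0) against days post-passage, with 1 point per library and a line per mouse. The type IV ratio stays between 2.24 and 3.12, and the late Tnfr2-/- points of the type V ratio are below the late WT points.

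Of the type IV genes Col4a1 and Col4a2 rose with time in Tnfr2-/- cultures. Col4a1 (chr8:11198423-11312826, minus strand) was at 568, 611, 714, 858 and 1184 in Tnfr2-/- mouse 1 and at 646, 674, 945, 1326 and 1594 in mouse 2. Each series grew from day to day, and the late change was 0.82 ± 0.24 (SE, adjusted p = 0.0249). In WT it was at 658, 610, 629, 405 and 786 in mouse 1 and at 632, 790.1, 922, 1017 and 1219 in mouse 2, so that the WT mice went opposite ways at 5 DPP. Protein-coding transcripts held 49.4% of the Col4a1 level, and on those alone the Tnfr2-/- change was 0.63 (adjusted p = 0.0206).

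Col4a2 (chr8:11312805-11449287, plus strand) was at 226, 268, 281, 363 and 421 in Tnfr2-/- mouse 1 and at 238, 275, 342, 434 and 528 in mouse 2. It rose by 0.68 ± 0.19 (adjusted p = 0.0203), a call lost on protein-coding transcripts only (0.47, adjusted p = 0.0571) and on mouse means (adjusted p = 0.0546). With the late libraries of WT mouse 1 left out, Col4a2 rose in WT as well (0.63, adjusted p = 0.0222), and Col4a1 changed there by 0.67 (adjusted p = 0.0668). Col4a1 and Col4a2 are read in opposite directions from 1 site, and their annotated spans overlap by 22 bases. Among the other type IV chains, Col4a5 was between 0.442 and 8.64 and Col4a3 was at 0 in 6 libraries. Their late changes in Tnfr2-/- were 0.69 ± 0.40 and 1.15 ± 0.40, neither called.

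Col18a1, the heparan sulfate collagen from which endostatin is cut, was at 286, 295, 249.7, 195.8 and 347 in WT mouse 1 at 1, 2, 3, 5 and 7 DPP and at 369, 476, 449, 356 and 406 in WT mouse 2. In Tnfr2-/- it was at 279, 255, 282, 319 and 461 in mouse 1 and at 341, 327, 359, 421 and 587 in mouse 2. Both Tnfr2-/- mice had their highest level at 7 DPP, and the change in Tnfr2-/- was 0.52 ± 0.21 (adjusted p = 0.105). Col7a1, the anchoring fibril collagen made by keratinocytes and fibroblasts, was between 22.4 and 141 in WT and between 32.7 and 249.6 in Tnfr2-/-, with a change of 1.22 ± 0.41 (adjusted p = 0.0506). With the mouse as a fixed block 13 of 26 collagens rose in Tnfr2-/-, against 13.3% of all genes in that fit, the 9 and Col7a1, Col18a1, Col15a1 and Col8a1 (adjusted p = 0.00169, 0.00236, 0.0111 and 0.000529).

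Among the other collagens Col12a1 rose by 1.12 ± 0.30 (SE, adjusted p = 0.0165) in Tnfr2-/- cultures. Col16a1, a fibril-associated collagen that also binds integrins, rose by 1.01 ± 0.27 (adjusted p = 0.0192), a call lost on mouse means (adjusted p = 0.0524). Col16a1 was at 59.4, 75.8, 63.8, 134 and 119 in Tnfr2-/- mouse 1 and at 80.2, 81.5, 63.1, 115 and 221 in mouse 2, and all 4 late values were above all 6 early ones. In WT it was at 90.6, 60.4, 47.8, 41.6 and 71.9 in mouse 1 and at 36.3, 72.9, 63.4, 86.8 and 121 in mouse 2.

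Type VI collagen forms beaded filaments around cells, and its 3 main chains were called in none of the 6 comparisons. Col6a3 was at 247, 234, 188, 150.3 and 147 in WT mouse 1, at 268, 319, 331, 352 and 421 in WT mouse 2, at 157, 187, 149, 146 and 323 in Tnfr2-/- mouse 1 and at 215, 254, 281, 251 and 379 in Tnfr2-/- mouse 2. The WT mice moved apart with time, and the Tnfr2-/- mice lay between them at 7 DPP. Col6a1 was between 95.5 and 293 in WT and between 102 and 291 in Tnfr2-/-, and Col6a2 was between 61.5 and 248.5 in WT and between 56.1 and 151 in Tnfr2-/-. Their late genotype differences were 0.11 ± 0.35, 0.16 ± 0.37 and -0.30 ± 0.43. With the late libraries of WT mouse 1 left out these became -0.57, -0.56 and -1.14, none called.

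Of the remaining tested genes, Col8a1, a short-chain collagen of vessel walls, was between 5.60 and 53.6 in WT and between 8.88 and 44.3 in Tnfr2-/-. Its late change was -0.67 ± 0.39 in WT and 0.93 ± 0.39 in Tnfr2-/-, and neither was called. With the late libraries of WT mouse 1 left out, the WT change of Col8a1 was 0.04. Col26a1 was between 0.284 and 9.29 over all libraries and Col20a1 between 0.122 and 4.66, with no call in any comparison. Col20a1 was at 0.523, 0.555, 0.969 and 1.06 in the late WT libraries and at 1.30, 2.26, 3.09 and 4.66 in the late Tnfr2-/- libraries, and its late difference of 1.04 ± 0.33 was not called (adjusted p = 0.0833).

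The calls in the Tnfr2-/- time course depended most on Tnfr2-/- mouse 2. Without its 7 DPP library 2 collagens were called (Col11a1 and Col5a3), against 6.60% of all genes higher in that fit, and without its 5 DPP library 3 were called, against 6.82%. Without mouse 1 at 1, 2 or 3 DPP the numbers were 6, 6 and 5, against 8.08%, 8.58% and 7.64%. Among the 9, Col5a3 and Col11a1 were called in all 20 fits that left out 1 library, and the lost calls of the others had adjusted p values from 0.0513 (Col16a1) to 0.144 (Col1a2). In the fits that lost a call the log2 change was 0.86 to 1.06 for Col1a1, 0.80 to 1.09 for Col1a2, 0.90 to 1.01 for Col5a2 and 0.94 to 1.00 for Col12a1. It was 0.79 to 0.95 for Col16a1, 0.67 to 0.80 for Col4a1 and 0.60 to 0.63 for Col4a2. In WT the Col15a1 rise (1.20 ± 0.39, adjusted p = 0.0438) was lost in 10 of 20 such fits (adjusted p = 0.0542 to 0.125) and on protein-coding transcripts (0.36, adjusted p = 0.613). The Col25a1 fall in WT (-0.73 ± 0.24, adjusted p = 0.0432) was lost in 11 (adjusted p = 0.0502 to 0.166). With the mouse as a block 5 collagens were called in WT, where 14.1% of all genes were called higher and 10.8% lower. These were the 2 and Col3a1, Col4a5 and Col8a1 (adjusted p = 0.00945, 0.0368 and 0.00376), of which Col3a1, Col4a5 and Col25a1 did not pass on mouse means (adjusted p = 0.0809, 0.105 and 0.129).

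Markers of mesenchymal and epithelial cells moved with time as well. In Tnfr2-/- all 12 were fitted higher late than early and 4 were called, against 10.4% of all genes, Tagln (1.69 ± 0.40), Postn (1.52 ± 0.42), Prrx1 (1.06 ± 0.26) and Dcn (0.91 ± 0.20). In WT Tagln (1.30 ± 0.40) and Thy1 (1.56 ± 0.52) were called higher, against 11.6%, and Twist1 (-1.21 ± 0.28) and Dcn (-0.90 ± 0.20) lower, against 8.52%. Of these 4 Tagln alone was called without the late libraries of WT mouse 1. Dcn was the 1 marker of 12 called for the difference between the genotypes in this change (1.81 ± 0.29, adjusted p = 0.0403). Of the 8 epithelial markers 6 were fitted higher late in each genotype. In Tnfr2-/- Epcam (1.57 ± 0.13) and Cdh1 (0.50 ± 0.08) were called higher and Krt8 (-0.43 ± 0.11) lower. In WT Epcam (1.33 ± 0.13), Cdh1 (0.51 ± 0.08) and Vil1 (1.08 ± 0.22) were called higher. With the late libraries of WT mouse 1 left out, these 3 WT changes were 1.07, 0.45 and 0.61. The part of these cells in the collagen changes was not tested.

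The sequence upstream of the genes was read for the fibrillar members the results turn on. RefSeq start sites gave a window of 250 bases before the start (GRCm38.p6) for 21 of the 26 tested genes, and for Col1a1, Col5a2, Col12a1, Col26a1 and Col4a3 none is shown. Each window was searched on both strands for CCAAT, the CCAAT box, TATAAA, the TATA box, CAGAC, a SMAD-type motif, and GGGCGG, an Sp1-type motif. The windows of Col11a1 and Col5a3 are shown as genes higher in Tnfr2-/- late, and that of Col3a1 as the most abundant collagen, which was not called. Capitals mark a match to CCAAT or TATAAA only, and ATTGG is CCAAT read on the other strand.
Col11a1: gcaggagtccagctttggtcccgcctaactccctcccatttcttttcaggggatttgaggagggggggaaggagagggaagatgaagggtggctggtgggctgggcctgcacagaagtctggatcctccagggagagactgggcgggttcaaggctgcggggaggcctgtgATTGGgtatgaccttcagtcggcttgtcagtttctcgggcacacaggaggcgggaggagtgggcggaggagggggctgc
Col5a3: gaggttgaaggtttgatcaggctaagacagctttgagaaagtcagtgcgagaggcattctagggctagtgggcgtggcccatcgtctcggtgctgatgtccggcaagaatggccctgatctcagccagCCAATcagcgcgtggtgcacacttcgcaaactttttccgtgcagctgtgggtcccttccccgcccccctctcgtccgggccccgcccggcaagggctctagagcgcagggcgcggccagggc
Col3a1: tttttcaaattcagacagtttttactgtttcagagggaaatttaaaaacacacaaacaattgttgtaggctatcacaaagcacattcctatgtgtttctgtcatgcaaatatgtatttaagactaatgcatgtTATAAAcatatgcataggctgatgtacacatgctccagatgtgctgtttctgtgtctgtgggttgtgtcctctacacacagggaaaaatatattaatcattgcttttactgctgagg

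These windows lie at chr3:114030290-114030539 (plus strand), chr9:20815068-20815317 (minus strand) and chr1:45311288-45311537 (plus strand). The match in Col11a1 begins 79 bases before the start and that in Col5a3 begins 122 before it, while TATAAA in Col3a1 begins 117 before it. CCAAT was in the windows of all 6 genes that rose in Tnfr2-/- and have one: Col11a1, Col5a3, Col1a2, Col16a1, Col4a1 and Col4a2. It was in 4 of the 15 windowed genes not called in that time course, Col18a1, Col25a1, Col4a5 and Col7a1, and in 33.8% of all 32851 windows of this length. TATAAA was in none of the 6, in 2 of the 15 (Col3a1 and Col11a2) and in 12.4% of all windows. CAGAC was in the windows of Col11a1, Col1a2 and Col4a2 among the 6, in 9 of the 15 and in 42.2% of all windows, and GGGCGG was in those of Col11a1, Col16a1, Col1a2, Col4a2 and Col5a3, in 9 of the 15 and in 32.7% of all. A match of letters is a description and no test was made.

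The genes that act on collagen chains were taken from a list of 60 in 6 roles, of which 55 were tested. The list was chosen with earlier results of these data known, so its counts are a description. Tll1 and Itga10 reached the mean of 1 needed for testing in 1 genotype only. In Tnfr2-/- against WT at the late days 11 of 55 were called higher and none lower, against the same background of 3.80% and 2.64%. Their median difference was 0.64, as for the collagens, and that of all genes was -0.05. With the late libraries of WT mouse 1 left out 3 were called higher (P4ha1, P4ha3 and Nid1), and the median was 0.26. Over all days 15 were called higher and 1 lower, against 4.51% and 3.09% of all genes, at the early days 1 higher and none lower, against 0.768% and 0.428%, and the difference in time course was called for 0. Taking libraries of a mouse as correlated, the count over all days was 10 higher and 0 lower, against 2.59% and 1.43% of all genes in that fit. On mouse means limma called 0 of the 55 over all, late and early days, with 13, 19 and 7 at an unadjusted p below 0.05, against 11.2%, 13.7% and 8.22% of all genes.

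Prolyl and lysyl hydroxylases and the collagen galactosyltransferases modify the chains before folding. Of the 14 tested genes of this role 4 were called higher late, against 3.80% of all genes. P4ha3, a subunit of prolyl 4-hydroxylase, was between 0.379 and 2.72 in the 4 late WT libraries and between 4.54 and 16.0 in the 4 late Tnfr2-/- libraries. The ranges did not overlap, against 11.4% of all genes without overlap at the late days, and the difference was 2.53 ± 0.33 (SE, adjusted p = 0.000789). P4ha1 was between 39.8 and 69.7 and between 102 and 195 in the same libraries, a difference of 1.34 ± 0.18 (adjusted p = 0.0012). P4ha2 differed by 0.79 ± 0.18. P4ha3 was also the 1 gene of the list called at the early days, at 1.64 ± 0.27.

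Lysyl oxidases cross-link the finished fibrils, and 2 of 5 were called higher late, against 3.80% of all genes. Lox was between 22.3 and 61.3 in late WT and between 74.3 and 161 in late Tnfr2-/-, with a difference of 1.48 ± 0.32 (adjusted p = 0.0169). Loxl2 differed by 1.43 ± 0.35 and fell late in WT (-1.02 ± 0.32). With the late libraries of WT mouse 1 left out, the late differences of Lox and Loxl2 between genotypes were 0.88 and 0.91. Loxl4 fell late in both genotypes, with changes of -0.81 ± 0.20 in WT and -0.96 ± 0.20 in Tnfr2-/-. Late falls were called for 8.52% of all genes in WT and 9.93% in Tnfr2-/-. Without the late libraries of WT mouse 1 neither WT fall was called, at -0.50 for Loxl2 and -0.58 for Loxl4 (adjusted p = 0.403 and 0.148).

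Of 7 genes for cleavage of the propeptides 1 was called higher late, against 3.80% of all genes. It was Tll1, a tolloid-like protease, at 1.34 ± 0.27 (adjusted p = 0.0125). Tll1 reached the mean of 1 needed for testing through Tnfr2-/- alone (0.942 in WT and 2.19 in Tnfr2-/-), so its call is a description. Of 6 tested genes for folding and export none was called between genotypes, and Mia3, which loads procollagen into transport carriers, rose in Tnfr2-/- (0.57 ± 0.14). Serpinh1, the collagen chaperone HSP47, was between 129 and 391 in late WT and between 231 and 595 in late Tnfr2-/-, overlapping and not called. Of 7 receptors Itga2 (1.27 ± 0.33) and Itgb1 (0.85 ± 0.18), which together form a collagen-binding integrin, were called higher late, against 3.80% of all genes. With the late libraries of WT mouse 1 left out, they differed by 1.08 and 0.63. In Tnfr2-/- Itga1 rose by 1.19 ± 0.26 and Ddr1, a receptor kinase for collagen, by 0.59 ± 0.10, and Ddr1 rose in WT too (0.81 ± 0.10). Late rises were called for 10.4% of all genes in Tnfr2-/- and 11.6% in WT.

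Of 16 partners of type IV collagen in the basement membrane, 2 were called higher late, against 3.80% of all genes. Hspg2, the proteoglycan perlecan, was between 9.09 and 20.5 in late WT and between 24.8 and 66.0 in late Tnfr2-/-, a difference of 1.46 ± 0.29 (adjusted p = 0.0102). Nid1, which links laminin to type IV collagen, was between 40.0 and 54.4 and between 92.1 and 224, a difference of 1.44 ± 0.20 (adjusted p = 0.00114). Neither pair of ranges overlapped, against 11.4% of all genes without overlap at the late days. With the late libraries of WT mouse 1 left out, Hspg2 and Nid1 differed by 1.06 and 1.34. Col4a1 and Col4a2 themselves differed by 0.61 ± 0.26 and 0.54 ± 0.20 at those days and were not called (adjusted p = 0.179 and 0.133), and with the late libraries of WT mouse 1 left out they differed by 0.12 each.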

How the data were processed

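Stranded mRNA libraries of 20 colonoid samples were sequenced as single-end reads. Per the labels and the study's methods, the authors quantified transcripts with kallisto against mm10 and used sleuth. The deposited expression signal is TPM divided by a size factor per library. The table also holds the authors' test columns (p-values, q-values and model terms), which were not used. From 113974 lines, 781 identical repeats were dropped, and values were summed per gene symbol (strand setting not given in the sources used here). All 44 collagens matched GENCODE M21, and Col4a6 has 2 Ensembl identifiers.

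Genes of mean at least 1 (13539) were fitted with limma 3.58.1 (R 4.3.3, trend) on log2(value + 1), so that changes of low genes are understated, with Benjamini-Hochberg adjustment over all genes, and called below 0.05. The genotype effect over all days had day as a covariate. The other comparisons were contrasts of the 10 group means, early being 1, 2 and 3 DPP and late 5 and 7 DPP. The fits were tested on simulated data with independent libraries and with changes in the more abundant genes only. That test does not cover libraries that share a mouse or low genes such as Col25a1. The same replicate number within a genotype is the same mouse by the labels, and deviations of a mouse on different days correlated at 0.0997 to 0.307 in WT and -0.0511 to 0.0800 in Tnfr2-/-. Numbers do not pair the genotypes. The block was a correlation between libraries of a mouse in genotype comparisons and a fixed term in time comparisons. Members and gene lists were chosen with earlier results of these data known. Every collagen of mean at least 1 is named. Values or ranges over libraries are given for members called in a comparison and for the most abundant of each class, and list genes are the called ones with the largest change in each role, with Serpinh1 added for its role.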

Additional observations from a re-analysis of the deposited data

Results flagged for a closer look

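The lowest or highest library stood far from the rest, by the gap to its neighbour over the range on the log2 scale, in 3 of 104 groups examined (26 collagens in 4 combinations of genotype and phase), and chance marks about 1 group in 20 (5%). Col3a1 in early WT was lowest in mouse 1 at 3 DPP, at 1052 against 1726 to 2182 in the other 5 libraries. Col4a3 in early Tnfr2-/- was highest in mouse 1 at 1 DPP, at 1.56 against 0 to 0.0581. Col26a1 in early Tnfr2-/- was highest in mouse 2 at 3 DPP, at 6.64 against 0.753 to 1.62. None of the 3 genes was called in the genotype or Tnfr2-/- comparisons.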

How the results depend on the processing

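Reads behind each value are not known, values are per transcript model, and each genotype had 2 mice, so the p-values above measure the spread between libraries of few animals. Of the 20 collagen calls, 18 held with a pseudocount of 0.5, 17 with 0.1, 16 without a filter on low values, 19 with libraries rescaled to the same sum, all 20 with median-ratio scaling or sums per Ensembl gene, 19 with the mouse as a block, 8 on mouse means and 16 on protein-coding transcripts only. No call turned direction under these settings, and the cause of the lost calls was not tested. The Col25a1 calls are counted among the 20 and are a description.

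On mouse means the genes called went from 1029 to 7 over all days, from 873 to 0 at the late days (1859 at an unadjusted p below 0.05), from 162 to 3 at the early days, from 20 to 1 for the difference in time course, from 2724 to 1728 in WT and from 2755 to 1790 in Tnfr2-/-, and the collagens called fell to 0 over all, late and early days. With the mouse as a replicate block 545 genes were called over all days, 47 for the difference in time course, and 5 collagens in WT in place of 2. For the difference in time course a pseudocount of 0.5 gave 7 genes, 0.1 gave 10 and no filter gave 55. The WT collagen count was 0 with either pseudocount, 1 without a filter and 1 at a mean of at least 5, and the early genotype count was 0 at a mean of at least 5, which leaves out Col25a1.

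Leaving out 1 library, a mouse or both late libraries of WT mouse 1 gave 1 to 8 collagens over all days, 0 to 13 at the late days, 0 to 2 at the early days, 0 to 2 for the difference in time course, 0 to 3 in WT and 2 to 11 in Tnfr2-/-. The highest late count, 13, came without WT mouse 2, and without either Tnfr2-/- mouse it was 0. The genes called ranged from 146 to 1931, 19 to 2186, 14 to 720, 0 to 136, 1056 to 2893 and 1811 to 3104. For the time courses of WT and Tnfr2-/- no fit left out a whole mouse, so their ranges come from the other fits. Rescaling to the same sum moved the share of higher calls from 59.4% to 37.0% over all days and from 59.0% to 43.3% late. That share went from 64.2% to 51.3% early, from 57.7% to 46.3% in WT and from 51.2% to 39.4% in Tnfr2-/-. The median of all genes at the late days went from -0.05 to -0.12.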
